A study of Homo sapiens with 9 samples.

Results

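The genes described here are 10 feedback genes of the RAS-ERK (MAPK) pathway: DUSP4, DUSP5, DUSP6, SPRY1, SPRY2, SPRY4, SPRED1, SPRED2, ETV4 and ETV5. They are listed by name, with earlier results of these data known, and are 10 of the 62666 genes in the deposited tables. All 10 passed the filter on low counts, which left 17910 genes for testing. RNA was sequenced from 3 related human mammary epithelial cell lines, with 3 libraries per line and 9 in all, to follow expression along a model of breast cancer progression. MCF10A is a non-tumorigenic line, MCF10AT1 is its derivative that carries an introduced activated HRAS gene, and MCF10Ca1a, from the same lineage, forms tumours in animals. The cultures were untreated beyond their medium: insulin at 10 µg/mL, epidermal growth factor (EGF) at 20 ng/mL, hydrocortisone at 500 ng/mL and cholera toxin at 100 ng/mL were given to all lines, so a ligand of the pathway was present throughout. Horse serum was 5% for MCF10A and MCF10Ca1a and 2.5% for MCF10AT1, so serum and line cannot be told apart in a comparison with MCF10AT1. Each line stands for itself alone, and nothing in the labels says whether the 3 libraries of a line came from separate cultures, so the p-values measure the spread between these libraries, which may be technical.

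Receptor tyrosine kinases such as the EGF receptor switch on RAS, which drives the RAF, MEK and ERK kinases in turn. Active ERK induces genes whose products then act against the pathway at several levels: dual-specificity phosphatases (DUSP) remove the activating phosphates from ERK, Sprouty proteins (SPRY) act between receptor and RAF, and SPRED proteins bring neurofibromin, a protein that switches RAS off, to the membrane. ETV4 and ETV5 are ETS transcription factors that are induced with them and that carry the transcriptional response to growth factor receptors. The mRNA level of these genes is often read as a trace of ERK output, but mRNA alone was measured here, not ERK phosphorylation.

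The deposited counts summed to 64.2 to 69.5 M (mega-counts) per MCF10A library, 62.9 to 68.1 M per MCF10AT1 library and 32.9 to 35.2 M per MCF10Ca1a library. Counts are given below as CPM, counts divided by the TMM-scaled library total, and levels of different genes are compared in TPM, which also takes account of transcript length. HRAS, the gene introduced into MCF10AT1, had a mean of 41.0 CPM in MCF10A, 97.6 in MCF10AT1 and 145 in MCF10Ca1a, and a gene count does not separate the introduced copy from the resident ones. The summed level of 8 mammary epithelial markers ran from 2391 to 3265 TPM in MCF10A, 3379 to 3822 in MCF10AT1 and 3988 to 4110 in MCF10Ca1a, with none of the 8 at 0. The sum hides opposite courses: KRT14 had 316, 65.7 and 6.26 CPM and KRT5 had 2548, 3268 and 686 CPM in the 3 lines, whereas EPCAM had 30.3, 141 and 267 CPM. The 7 fibroblast markers summed to 6.43 to 7.23, 27.7 to 31.5 and 1.94 to 2.33 TPM, and the 7 immune and endothelial markers to 8.88 to 13.6, 3.47 to 3.89 and 45.9 to 52.8 TPM in the same order of lines. In each list 5 of 7 genes had a mean under 0.1 TPM in every line; the rest of the sums came mostly from DCN in MCF10AT1 and from CD68 and PECAM1 in MCF10Ca1a, and their part in the results was not tested. COL1A2 was at 0 in both derived lines, COL3A1 in MCF10A and LUM in MCF10Ca1a, and the T cell gene CD3E was at 0 in all 3 lines.

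The summed TPM of the 10 genes was higher in the derived lines, although single genes went both ways. Their summed level was 237 ± 25.4 TPM (SD, n = 3) in MCF10A, 352 ± 6.65 TPM (SD, n = 3) in MCF10AT1 and 429 ± 4.76 TPM (SD, n = 3) in MCF10Ca1a, and the ranges of the lines did not overlap. From MCF10AT1 to MCF10Ca1a the median of all genes also rose, by 0.19 on the log2(TPM + 1) scale. The DUSP genes carried most of the increase, with sums of 124 ± 13.0, 230 ± 3.14 and 306 ± 2.84 TPM (SD, n = 3), and held 52.3% ± 0.149 of that sum in MCF10A, 65.4% ± 0.369 in MCF10AT1 and 71.3% ± 0.493 in MCF10Ca1a (SD, n = 3). The SPRY genes summed to 37.7 ± 2.81, 46.0 ± 1.21 and 35.6 ± 1.49 TPM and the SPRED genes to 30.1 ± 3.22, 32.1 ± 0.206 and 51.5 ± 2.04 TPM (SD, n = 3). The ETV pair had 45.2 ± 6.43, 43.6 ± 2.13 and 36.1 ± 0.575 TPM (SD, n = 3), with overlapping ranges in MCF10A and MCF10AT1. In these bulk libraries, a change in the number of cells that hold a transcript and a change in RNA per cell cannot be told apart.

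The first comparison, MCF10AT1 against MCF10A, is between a line that carries introduced activated HRAS and the line it derives from. The lines also differed in serum, and the part of HRAS alone was not tested. Of the 10 genes, 8 were higher and 2 lower in MCF10AT1 (edgeR's quasi-likelihood test, Benjamini-Hochberg adjusted p under 0.05), and none lacked a call. Of all genes tested, 61.6% were called in this comparison, 29.8% higher and 31.8% lower, so 10 calls of 10 stand against a background in which most genes were called. The 3 DUSP genes rose at least 2-fold on counts. On the log2(TPM + 1) scale they rose by 0.95 (DUSP4), 0.86 (DUSP5) and 0.85 (DUSP6), which is less than 2-fold. With the shift in the all-gene median (-0.09) taken off, the rises were 1.04 (DUSP4), 0.94 (DUSP5) and 0.93 (DUSP6). DUSP4 was then above 2-fold and DUSP5 and DUSP6 were below it. On counts 18% of all genes changed at least 2-fold, 9.36% upward. The median log2 change of the 10 genes was 0.61, against 0.00 over all genes tested, and their median absolute change was 0.61 against 0.38. On the log2(TPM + 1) scale fewer of the called genes were higher, 36.1% against 48.4% on counts, and the median of all genes moved to -0.09.

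In MCF10Ca1a against MCF10AT1, which covers the step to the malignant line, 4 of the 10 genes were higher (DUSP4, DUSP5, SPRY4 and SPRED2), 5 were lower (DUSP6, SPRY1, SPRY2, SPRED1 and ETV4) and ETV5 had no call. The background was 78.4% of all genes called, 38% higher and 40.3% lower. DUSP5 and SPRY2 changed at least 2-fold on counts, in opposite directions, as did 37.7% of all genes. On the log2(TPM + 1) scale SPRY2 changed by -0.88, less than 2-fold, and SPRED2 by 1.38, more than 2-fold. With the shift in the all-gene median (0.19) taken off, SPRY2 changed by -1.07 and SPRED2 by 1.18, both more than 2-fold. The median log2 change of the 10 genes was -0.27, against -0.04 over all genes, and their median absolute change was 0.72 against 0.76. On the log2(TPM + 1) scale 61.6% of the called genes were higher, against 48.5% on counts, and the median of all genes moved to 0.19.

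Across the whole series, MCF10Ca1a against MCF10A, 4 genes were higher (DUSP4, DUSP5, DUSP6 and SPRED2), 5 were lower (SPRY1, SPRY2, SPRED1, ETV4 and ETV5) and SPRY4 had no call. The background was 80.9% of all genes called, 39% higher and 41.9% lower, and the share of the 10 genes that was called lies near it. DUSP4, DUSP5 and SPRED2 differed at least 2-fold, as did 42.9% of all genes in either direction. The median absolute change of the 10 genes was 0.39, less than the 0.84 over all genes tested. Each line enters in more than 1 of these comparisons, so their calls share libraries. Expressed relative to the median of all genes, all 30 changes kept their sign on the log2(TPM + 1) scale.

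**Figure D1:**
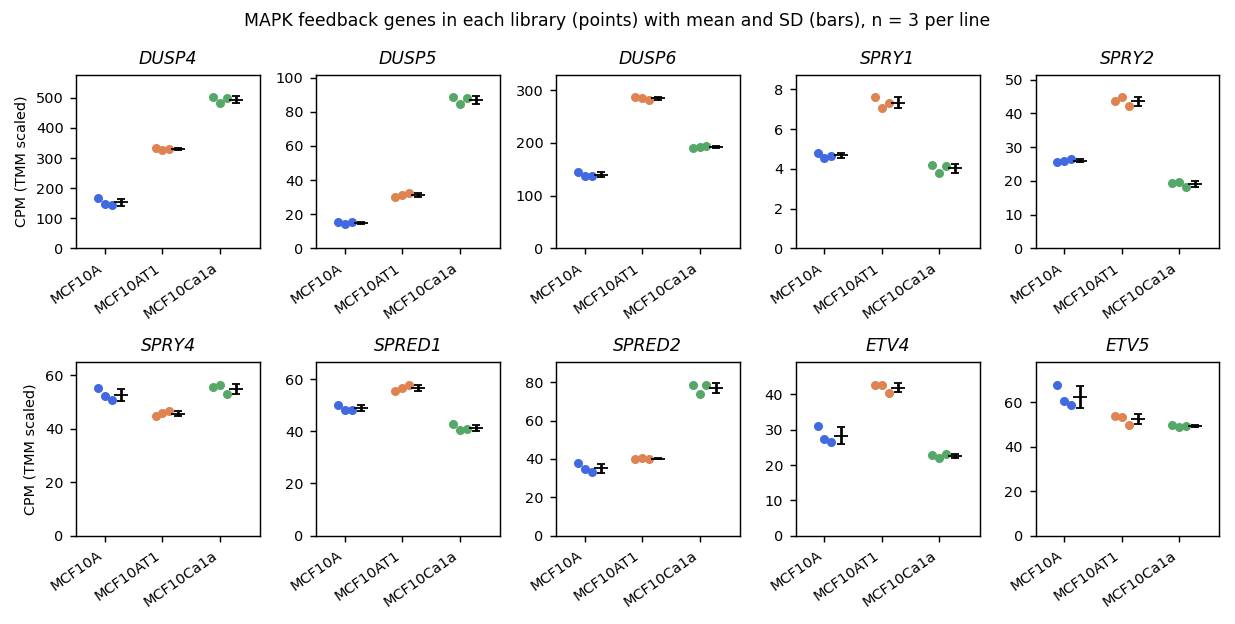
Level of each of the 10 genes in CPM (vertical axes, linear, from 0, scaled to each gene) in the 3 lines, with a point per library and bars for the mean and SD (n = 3 per line). DUSP5 stands between 84.3 and 88.6 CPM in MCF10Ca1a against 14.4 to 15.5 CPM in MCF10A, whereas SPRY2 is highest in MCF10AT1.

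**Figure D2:**
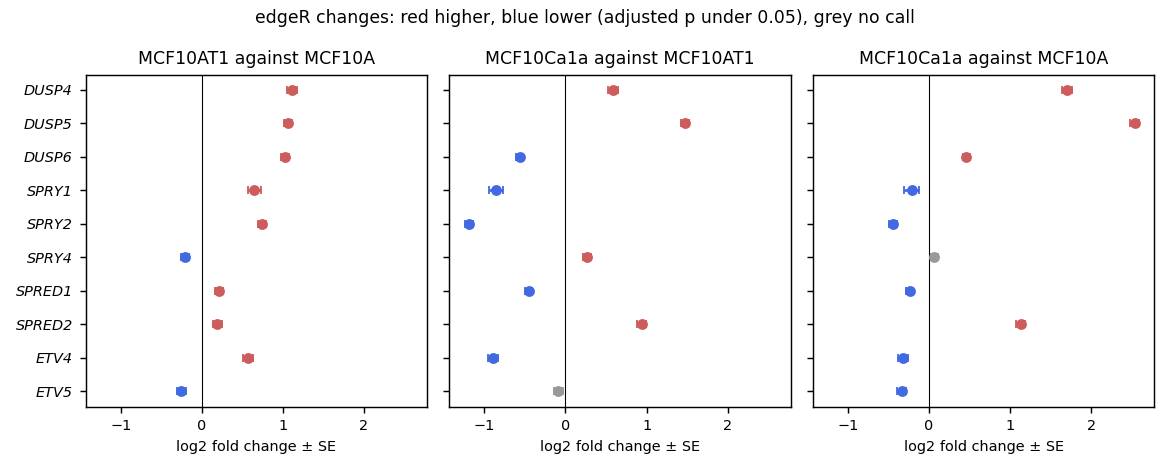
Fitted log2 fold change of each gene with its standard error in the 3 comparisons, red for higher and blue for lower at an adjusted p under 0.05, grey for no call. The 3 DUSP genes lie between 1.03 and 1.12 in MCF10AT1 against MCF10A and then part, with DUSP6 at -0.57 and DUSP5 at 1.48 in MCF10Ca1a against MCF10AT1.

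DUSP6 (ENSG00000139318.8, chromosome 12:89347232-89353271, minus strand; all gene positions are from GENCODE 29 on GRCh38) encodes a cytoplasmic phosphatase that acts on ERK with little activity on the other MAP kinases. It had 145, 138 and 136 CPM in the MCF10A libraries, 286, 285 and 281 in MCF10AT1 and 190, 193 and 194 in MCF10Ca1a. All MCF10AT1 libraries lay above those of both other lines, and MCF10Ca1a lay in between without overlap. The log2 change was 1.03 (SE 0.0484, edgeR adjusted p 5.46e-10) in MCF10AT1 against MCF10A, -0.57 (SE 0.0482, adjusted p 9.12e-08) in MCF10Ca1a against MCF10AT1, and 0.46 (SE 0.0484, adjusted p 7.47e-07) in MCF10Ca1a against MCF10A. An antisense gene, AC024909.2, shares 1875 exon bases with DUSP6 but was listed at 0.102 TPM or less in MCF10A and MCF10AT1 and 0.118 TPM in MCF10Ca1a.

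DUSP4 (ENSG00000120875.9, 8:29333064-29350668, minus strand) encodes a nuclear phosphatase of ERK and of stress-activated kinases. It had 167, 148 and 142 CPM in MCF10A, 333, 328 and 330 CPM in MCF10AT1 and 502, 483 and 498 CPM in MCF10Ca1a. The lines were ordered MCF10A, MCF10AT1, MCF10Ca1a with no overlap between neighbours. From MCF10A to MCF10AT1 DUSP4 rose by 1.12 on the log2 scale (SE 0.0623, edgeR adjusted p 3.03e-09), and it was 0.58 higher again (SE 0.0616, adjusted p 9.17e-07) in MCF10Ca1a, 3.24-fold above MCF10A in all (adjusted p 1.12e-11).

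DUSP5 (ENSG00000138166.6, 10:110497838-110511544, plus strand) encodes a nuclear phosphatase specific for ERK, which it also holds in the nucleus. Its MCF10A libraries had 15.5, 14.4 and 15.2 CPM, its MCF10AT1 libraries 30.3, 31.3 and 32.3 CPM and its MCF10Ca1a libraries 88.6, 84.3 and 88.3 CPM. It followed the same order of lines as DUSP4 without overlap. The log2 change was 1.06 (SE 0.0518, edgeR adjusted p 8.10e-10) at the step to MCF10AT1, 1.48 (SE 0.0499, adjusted p 6.46e-12) at the step to MCF10Ca1a and 2.53 (SE 0.0526, adjusted p 4.37e-14) over both, a 5.79-fold difference. No other gene of the 10 changed as far.

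The balance between the ERK phosphatases differed between the lines. In TPM, DUSP6 was the highest of the 10 genes in MCF10A (76.3 ± 6.58 TPM, SD, n = 3) and in MCF10AT1 (138 ± 2.65), followed by DUSP4 (37.8 ± 5.65 and 73.6 ± 1.32). In MCF10Ca1a DUSP4 led with 133 ± 2.26 TPM, DUSP6 had 111 ± 0.830 and DUSP5 62.1 ± 1.24. The ratio of DUSP4 to DUSP6 within a library was 0.494 ± 0.0309 (SD, n = 3) in MCF10A, 0.535 ± 0.0104 in MCF10AT1, with overlapping ranges, and 1.20 ± 0.0281 in MCF10Ca1a. That of DUSP5 to DUSP6 was 0.130 ± 0.00444, 0.136 ± 0.00475 and 0.561 ± 0.0150 (SD, n = 3). MCF10A and MCF10AT1 overlapped in both ratios and MCF10Ca1a stood above them. With 3 libraries per line an exact two-sided permutation test of a ratio cannot go below p = 0.1, so none was run.

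SPRY2 (ENSG00000136158.12, 13:80335976-80340951, minus strand) encodes a Sprouty protein that is phosphorylated on receptor activation and restrains the signal between receptor and RAF. It had 25.5, 25.9 and 26.5 CPM in MCF10A, 43.6, 44.8 and 42.2 CPM in MCF10AT1 and 19.3, 19.7 and 18.2 CPM in MCF10Ca1a. MCF10AT1 was highest and MCF10Ca1a lowest, with no overlap. SPRY2 rose by 0.75 on the log2 scale (SE 0.0489, edgeR adjusted p 1.56e-08) at the first step and fell by 1.19 (SE 0.0520, adjusted p 8.02e-11) at the next, to -0.45 (SE 0.0526, adjusted p 2.62e-06) against MCF10A.

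SPRY1 (ENSG00000164056.11, 4:123396795-123403760, plus strand), another Sprouty inhibitor, was the lowest of the 10 genes in TPM in every line. It had 4.82, 4.56 and 4.66 CPM in MCF10A, 7.60, 7.05 and 7.31 CPM in MCF10AT1 and 4.19, 3.77 and 4.12 CPM in MCF10Ca1a. The MCF10AT1 libraries lay above all others, 0.65 over MCF10A on the log2 scale (SE 0.0810, edgeR adjusted p 1.09e-05), and MCF10Ca1a differed from MCF10AT1 by -0.86 (SE 0.0871, adjusted p 5.62e-07). The libraries of MCF10A and MCF10Ca1a came close without overlap: the log2 change was -0.21 (SE 0.0891, edgeR adjusted p 0.0393). That call was lost in 12 of 20 alternative analyses, with adjusted p from 0.0111 to 0.201, among them those without MCF10A replicate 1 (0.0591) or 3 (0.0506) and without MCF10Ca1a replicate 2 (0.134) or 3 (0.0511).

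SPRY4 (ENSG00000187678.10, 5:142310427-142326455, minus strand), a Sprouty protein that also acts upstream of ERK, took the opposite course to SPRY2 at both steps. It had 55.1, 52.1 and 50.6 CPM in MCF10A, 44.6, 46.0 and 46.4 CPM in MCF10AT1 and 55.5, 56.5 and 52.9 CPM in MCF10Ca1a. MCF10AT1 was the lowest line, and MCF10A and MCF10Ca1a overlapped. Its log2 change was -0.20 (SE 0.0499, edgeR adjusted p 0.00296) in MCF10AT1 against MCF10A, 0.27 (SE 0.0509, adjusted p 0.000267) in MCF10Ca1a against MCF10AT1 and 0.06 (adjusted p 0.256) in MCF10Ca1a against MCF10A. The TPM ratio of SPRY4 to SPRY2 was 0.783 ± 0.0445 (SD, n = 3) in MCF10A, 0.406 ± 0.0216 in MCF10AT1 and 1.11 ± 0.0216 in MCF10Ca1a, with no overlap between lines. The antisense gene SPRY4-AS1 shares no exon bases with SPRY4.

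SPRED1 (ENSG00000166068.13, 15:38252326-38357249, plus strand) encodes a RAS inhibitor that binds neurofibromin, the product of NF1. It had 50.2, 48.2 and 48.2 CPM in MCF10A, 55.5, 56.6 and 57.9 CPM in MCF10AT1 and 42.8, 40.6 and 40.7 CPM in MCF10Ca1a. MCF10AT1 was highest and MCF10Ca1a lowest, without overlap, and the differences were modest. SPRED1 rose by 0.21 on the log2 scale (SE 0.0460, edgeR adjusted p 0.00115) at the step to MCF10AT1 and fell by 0.45 (SE 0.0474, adjusted p 7.82e-07) at the step to MCF10Ca1a, which left it at -0.24 (SE 0.0475, adjusted p 0.000341) against MCF10A. The first and last of these calls were lost with limma on TPM, where the changes were 0.07 (limma adjusted p 0.379) and -0.14 (0.0692).

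SPRED2 (ENSG00000198369.10, 2:65310851-65432637, minus strand) encodes the related SPRED protein with the same domains and the same target. It had 37.8, 34.6 and 33.2 CPM in MCF10A, 39.8 to 40.6 CPM in the 3 MCF10AT1 libraries and 78.5, 74.0 and 78.8 CPM in MCF10Ca1a. The MCF10Ca1a libraries stood far above the others, while the ranges of MCF10A and MCF10AT1 lay next to each other without overlap. In MCF10AT1 against MCF10A the log2 change was 0.19 (SE 0.0551, edgeR adjusted p 0.00867), a call lost with limma on log2(TPM + 1) (0.13, limma adjusted p 0.283). It was 0.94 (SE 0.0551, edgeR adjusted p 1.68e-09) in MCF10Ca1a against MCF10AT1 and 1.13 (SE 0.0555, adjusted p 1.94e-10) in MCF10Ca1a against MCF10A. The TPM ratio of SPRED2 to SPRED1 was 0.644 ± 0.0476 (SD, n = 3) in MCF10A, 0.671 ± 0.0111 in MCF10AT1, with overlapping ranges, and 2.14 ± 0.133 in MCF10Ca1a.

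**Figure D3:**
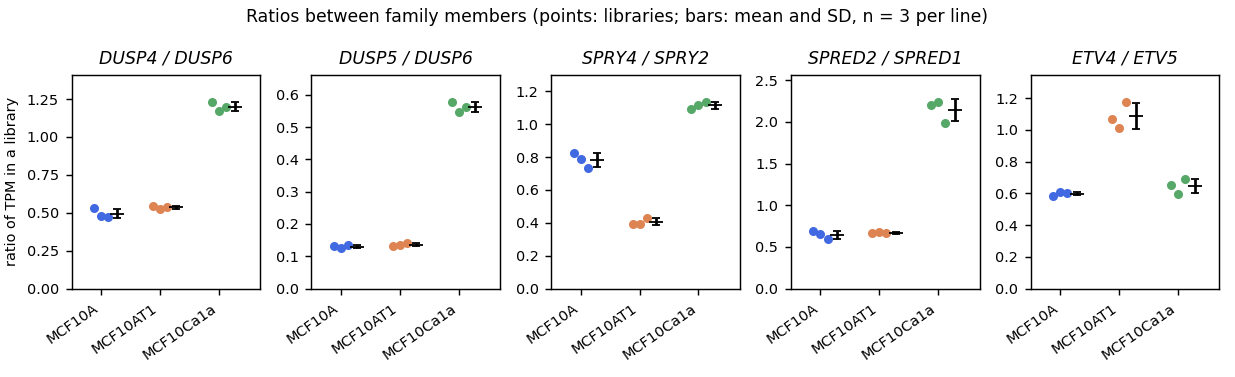
Ratio of the TPM of 2 genes of a family within each library (vertical axes, linear, from 0), with a point per library and bars for the mean and SD (n = 3 per line). DUSP4 to DUSP6, DUSP5 to DUSP6 and SPRED2 to SPRED1 are alike in MCF10A and MCF10AT1 and higher in MCF10Ca1a, at 1.20, 0.561 and 2.14, whereas ETV4 to ETV5 is highest in MCF10AT1 at 1.08.

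ETV4 (ENSG00000175832.13, 17:43527844-43579620, minus strand) encodes an ETS activator of the PEA3 group. It had 31.0, 27.3 and 26.6 CPM in MCF10A, 42.6, 42.8 and 40.4 CPM in MCF10AT1 and 22.8, 21.9 and 23.1 CPM in MCF10Ca1a. As with SPRY2, MCF10AT1 was highest and MCF10Ca1a lowest with no overlap. ETV4 changed by 0.57 on the log2 scale (SE 0.0601, edgeR adjusted p 2.08e-06) in MCF10AT1 against MCF10A, -0.89 (SE 0.0632, adjusted p 1.27e-08) in MCF10Ca1a against MCF10AT1 and -0.32 (SE 0.0638, adjusted p 0.000341) in MCF10Ca1a against MCF10A. The last call was lost with limma on log2(TPM + 1) without a filter (-0.23, limma adjusted p 0.0548). The opposite-strand gene DHX8, at 12.4 to 24.9 TPM, shares 68 exon bases with ETV4.

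ETV5 (ENSG00000244405.8, 3:186046308-186110318, minus strand), of the same ETS group, did not follow ETV4. It had 68.0, 60.4 and 58.9 CPM in MCF10A, 53.9, 53.4 and 49.9 CPM in MCF10AT1 and 49.9, 49.1 and 49.1 CPM in MCF10Ca1a. MCF10A was the highest line, and the lowest MCF10AT1 library met the highest MCF10Ca1a library at 49.9 CPM. Against MCF10A, ETV5 fell by 0.25 on the log2 scale in MCF10AT1 (SE 0.0583, edgeR adjusted p 0.00192) and fell by 0.34 in MCF10Ca1a (SE 0.0596, adjusted p 0.000126). Between MCF10Ca1a and MCF10AT1 it had no call (log2 change -0.09, SE 0.0598, adjusted p 0.201), although 4 of 20 alternative analyses made one, among them that without MCF10A replicate 1 (-0.10, adjusted p 0.0365). MCF10A enters this comparison only through the shared fit, and the SE was 0.0407 without that library. The TPM ratio of ETV4 to ETV5 was 0.598 ± 0.0104 (SD, n = 3) in MCF10A, 1.08 ± 0.0811 in MCF10AT1 and 0.646 ± 0.0456 in MCF10Ca1a, with MCF10A and MCF10Ca1a overlapping. DGKG shares 164 exon bases with ETV5 on the same strand and had 0.270, 1.28 and 3.85 TPM in the 3 lines.

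Among the SPRY, SPRED and ETV genes, the order of the levels in TPM also shifted between the lines. In MCF10A ETV5 (28.3 ± 4.20 TPM, SD, n = 3) stood above SPRY2 (18.8 ± 0.885), SPRED1 (18.3 ± 1.51) and ETV4 (16.9 ± 2.24), and the libraries of the last 3 overlapped. In MCF10AT1 SPRY2 (28.6 ± 1.25 TPM) was the highest of these, followed by ETV4 (22.7 ± 0.356) and ETV5 (21.0 ± 1.81), which overlapped. In MCF10Ca1a SPRED2 (35.1 ± 2.05 TPM) moved to the front, from the lower end in MCF10A (11.8 ± 1.75), and SPRY4, SPRED1, SPRY2 and ETV4 lay together between 14.2 and 16.8 TPM. SPRY1 had 4.16 ± 0.442, 5.74 ± 0.180 and 3.65 ± 0.471 TPM in the 3 lines.

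The regions before the transcription starts were read for the letters of 4 motifs: ETS (CGGAAG), AP-1 (TGANTCA), the CIC core (TGAATG) and the cyclic AMP response element (TGACGTC). ETS factors and AP-1 carry ERK output to genes, and CIC is a repressor that ERK signalling releases from genes that include members of these families. RefSeq start regions on GRCh38.p14 were at hand for DUSP6, SPRY1, SPRY2, SPRY4, SPRED1 and SPRED2, in 10 windows of 250 bases before the start, read on both strands. Of 35116 such windows of all genes, 16.5% held the ETS letters, 6.57% the AP-1 letters, 9.92% the CIC letters and 3.12% the response element. Among the windows of these 6 genes, the ETS letters occurred in DUSP6 and SPRY1 and the CIC letters in DUSP6 and SPRED2, and no window held AP-1 or the response element letters. For DUSP6, SPRY4 and SPRED1 the only window lay downstream of the GENCODE 29 start of the transcript with the highest TPM. The bases before that start were not read for these genes, so neither matches nor absences describe them. The matches are shown because ETV4 and ETV5, themselves measured here, are ETS factors, and a match is a description of the letters, not evidence of binding. Each is printed on the strand of its gene with the motif in capitals. The DUSP6 ETS match (reverse strand, 62 to 57 bases before the start, chr12:89352546-89352575), the DUSP6 CIC match (133 to 128 bases before the start, chr12:89352617-89352646) and the SPRY1 ETS match (66 to 61 bases before the start, chr4:123398308-123398337, plus strand) lie in exons of longer annotated transcripts:
DUSP6 ETS match: cggcaacagcccCTTCCGcagcacgctcat
DUSP6 CIC match: tttccgtttttgTGAATGacaaactcatta
SPRY1 ETS match: gccctccgcagcCGGAAGggggccgcgggg

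Transcripts of the 10 genes were then compared by their share of the gene's TPM. The table lists 62 transcripts of them, 54 above 0 in some library, and 18 transcripts of 7 genes had a mean share from 5% to 95% and were tested with limma. In MCF10AT1 against MCF10A 1 of 18 changed share (background 4.22% of all transcripts tested), in MCF10Ca1a against MCF10AT1 3 of 18 (background 24.6%) and in MCF10Ca1a against MCF10A 7 of 18 (background 30.4%). Shares within a gene are not independent, since a rise of 1 transcript lowers the share of the rest. The 7 calls came from DUSP6, SPRED2, ETV4 and ETV5 alone. The count of 1 became 0 without any single MCF10A library or without MCF10AT1 replicate 1 or 2, and 3 without MCF10Ca1a replicate 3. The count of 3 became 5 without MCF10A replicate 2 or MCF10Ca1a replicate 2, and the count of 7 became 3 without MCF10Ca1a replicate 3 and 4 without MCF10A replicate 2 or 3.

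The full-length coding transcript of SPRED2 (ENST00000356388.9, 6 exons, 418 codons) held 93.2% ± 1.32 of the gene's TPM (SD, n = 3) in MCF10A, 86.9% ± 0.727 in MCF10AT1 and 72.0% ± 5.29 in MCF10Ca1a, with no overlap between lines. On the log2 ratio of the transcript to the rest of the gene, the change was -2.27 (SE 0.221, limma adjusted p 0.000342) in MCF10Ca1a against MCF10A and -1.29 (SE 0.221, adjusted p 0.00572) against MCF10AT1. Both calls were made in all 9 fits that each left out 1 library. In MCF10AT1 against MCF10A the change had no call (-0.97, SE 0.221, limma adjusted p 0.0571). In counts the full-length transcript still held 99.2%, 98.8% and 95.8% of the gene in the 3 lines, because the rest comes from short transcripts, to which TPM gives more weight per count. The change of the whole gene against MCF10A, relative to the median of all genes, was 1.40 on the log2(TPM + 1) scale, beside 1.13 on counts.

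One of these is ENST00000427238.1, of 2 exons and 467 bases, whose share rose from 3.90% in MCF10A to 16.6% in MCF10Ca1a (log2 ratio change 1.96, SE 0.405, limma adjusted p 0.00974). It had no call in MCF10AT1 against MCF10A (limma adjusted p 0.149) or in MCF10Ca1a against MCF10AT1 (0.234). It rests on 3 to 6 counts per library in MCF10A, 10 to 15 in MCF10AT1 and 13 to 33 in MCF10Ca1a. The other, singled out after its values were seen, is ENST00000474228.1, annotated as a processed transcript without a coding sequence, which starts inside the gene, 65885 bases from its outermost start. Its estimated counts were 3.74, 12.4 and 10.4 in the MCF10A libraries, 19.2, 9.54 and 13.0 for MCF10AT1, and 72.8, 70.7 and 87.1 for MCF10Ca1a. The full-length transcript had means of 2310, 2580 and 2584 counts. Neither set of counts is scaled to the library totals, which were lowest in MCF10Ca1a. In TPM the full-length transcript had means of 10.98, 11.21 and 25.22 in the 3 lines, so it was also highest in MCF10Ca1a. ENST00000474228.1 had means of 0.198, 0.293 and 3.57 TPM, and all its MCF10Ca1a libraries lay above all others. Its share was 1.75% ± 0.954, 2.28% ± 0.788 and 10.2% ± 1.59 (SD, n = 3), and with the share limits widened to 1% and 99% the change was 2.23 (limma adjusted p 0.00583) against MCF10A and 1.93 (adjusted p 0.0135) against MCF10AT1. A coding transcript that starts close by, ENST00000443619.6 (415 codons), had 0 counts in the 6 libraries of MCF10A and MCF10AT1, which allows up to 3 counts in each, and 12.3, 3.73 and 4.06 estimated counts in MCF10Ca1a.

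The sequences before a pair of SPRED2 starts are shown because the full-length transcript and ENST00000474228.1 differ in where they begin. ENST00000427238.1 starts elsewhere, 87851 bases from the outermost start, and no sequence is shown for it. Both are from RefSeq on GRCh38.p14, minus strand, read 5′ to 3′ along the gene. Start 1 is the 212 bases before the outermost annotated start (chr2:65432638-65432849), which lies 460 bases from the start of the full-length transcript, and holds none of the 4 motifs. Start 2 is the 250 bases before the internal RefSeq start (chr2:65366779-65367028), which lies 26 bases from the annotated start of ENST00000474228.1, and its capitals mark the CIC core letters 58 to 53 bases before the start:
SPRED2 start 1: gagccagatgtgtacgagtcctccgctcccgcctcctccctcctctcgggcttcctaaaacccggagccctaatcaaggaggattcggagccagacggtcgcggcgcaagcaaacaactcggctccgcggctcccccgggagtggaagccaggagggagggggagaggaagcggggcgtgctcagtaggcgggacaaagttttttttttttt
SPRED2 start 2: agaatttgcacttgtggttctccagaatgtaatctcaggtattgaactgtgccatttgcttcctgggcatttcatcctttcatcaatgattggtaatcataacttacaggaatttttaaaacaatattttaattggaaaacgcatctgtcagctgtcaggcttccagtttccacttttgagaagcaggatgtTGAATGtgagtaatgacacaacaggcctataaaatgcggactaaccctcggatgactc

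**Figure D4:**
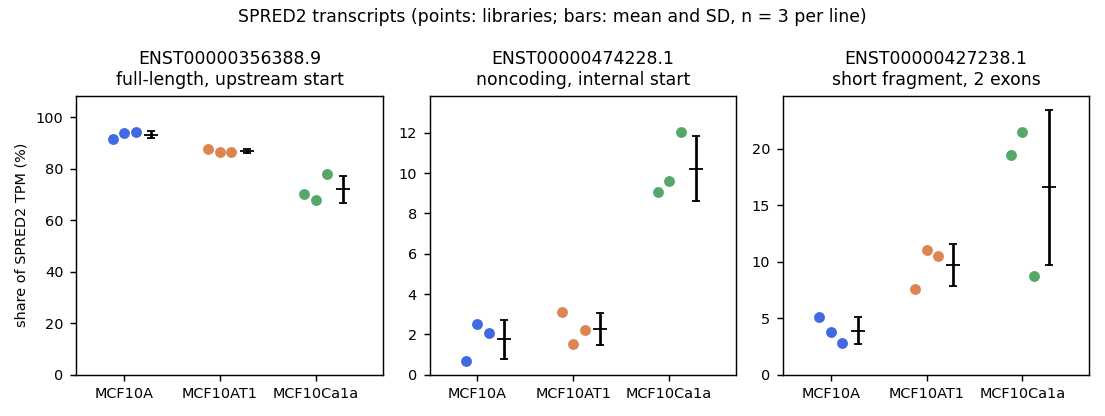
Share of the TPM of SPRED2 (percent, vertical axes, linear, from 0, scaled to each transcript) held by 3 of its transcripts, with a point per library and bars for the mean and SD (n = 3 per line). The full-length transcript falls from 93.2% to 72.0% while the transcript with the internal start rises from 1.75% to 10.2%, and the short fragment varies from 8.75% to 21.5% among the MCF10Ca1a libraries.

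DUSP6 has a full-length transcript (ENST00000279488.8, 381 codons) and a shorter one (ENST00000308385.6, 235 codons). The full-length one held 65.7% to 67.7% of its TPM in the libraries of MCF10A, 68.3% to 72.3% in MCF10AT1 and 71.5% to 73.8% in MCF10Ca1a, with means of 66.6%, 69.8% and 72.9%. The shorter one held 23.2% ± 0.281, 21.4% ± 1.10 and 17.9% ± 1.77 (SD, n = 3). Both shares differed between MCF10Ca1a and MCF10A (log2 ratio change 0.43, limma adjusted p 0.0368, and -0.48, adjusted p 0.0291), but only 2 and 4 of the 9 fits that left out a library kept the call. The calls were lost without any single MCF10A library and without MCF10Ca1a replicate 2 or 3, and the first also without MCF10AT1 replicate 2 or 3, with adjusted p up to 0.106.

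ETV4 RNA is spread over several coding transcripts. The main one, ENST00000393664.6, held 38.6% ± 7.56, 42.5% ± 4.55 and 55.9% ± 10.3 of the gene's TPM (SD, n = 3) in MCF10A, MCF10AT1 and MCF10Ca1a, without a call. ENST00000538265.5 (445 codons) held 15.4% ± 2.95 and 17.1% ± 3.94 of it in MCF10A and MCF10AT1 but 1.93% ± 3.35 (SD, n = 3) in MCF10Ca1a, where its share ran from 0% to 5.80%. The log2 ratio change was -3.61 (SE 0.826, limma adjusted p 0.0148) against MCF10A and -3.77 (SE 0.826, adjusted p 0.0155) against MCF10AT1, and the second call was lost without MCF10AT1 replicate 3 (adjusted p 0.0531). ENST00000545954.5, which also has 445 codons, held 7.60% ± 0.722, 2.71% ± 0.903 and 10.3% ± 2.01 (SD, n = 3). It was the only transcript called in MCF10AT1 against MCF10A (change -1.49, SE 0.262, limma adjusted p 0.0255), a call kept in 4 of 9 fits that left out a library and lost without any single MCF10A library or MCF10AT1 replicate 1 or 2 (adjusted p up to 0.0843). It was higher in MCF10Ca1a than in MCF10AT1 (1.95, SE 0.262, limma adjusted p 0.00206), in all 9 such fits. How reliably reads were split among these transcripts was not tested.

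For ETV5 the full-length transcript (ENST00000306376.10, 510 codons) held 74.3% ± 0.855, 77.3% ± 3.44 and 83.0% ± 3.75 (SD, n = 3), and the noncoding ENST00000476890.1 held 21.3% ± 3.38, 18.5% ± 0.452 and 13.1% ± 2.81. Their shares differed between MCF10Ca1a and MCF10A (0.76, limma adjusted p 0.0370, and -0.83, adjusted p 0.0253). The first call was lost in 6 of 9 fits that left out a library, those without any single MCF10A library, MCF10AT1 replicate 1 or MCF10Ca1a replicate 1 or 3. The second was lost without MCF10A replicate 2 or 3 or MCF10Ca1a replicate 1 or 3, with adjusted p up to 0.0813. For SPRED1 (ENST00000299084.9) and SPRY4 (ENST00000434127.3) the main transcript had a mean share of 88.0% to 93.5% in every line, without a call.

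The main transcript of SPRY1 (ENST00000622283.1, 319 codons) held 58.9% to 69.4% of the gene's TPM in the MCF10A libraries, 45.1% to 65.4% in MCF10AT1 and 62.8% to 71.1% in MCF10Ca1a, without a call. In DUSP4, DUSP5 and SPRY2 the main transcript was nearly the whole gene and too near 100% to be tested. Its mean share was 98.9% to 99.4% in DUSP4 (ENST00000240100.7, 394 codons), 99.6% to 100% in DUSP5 (ENST00000369583.4, 384 codons) and 94.4% to 96.1% in SPRY2 (ENST00000377104.4, 315 codons).

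Genes elsewhere in the pathway were read from lists that were written with earlier results of these data known. Among 10 other genes of the same families (DUSP1, DUSP2, DUSP7, DUSP8, DUSP9, DUSP10, DUSP16, SPRY3, SPRED3 and ETV1), 1 was higher and 6 were lower in MCF10AT1 than in MCF10A (median log2 change -0.62), 70% called against 61.6% of all genes tested. SPRED3, the third SPRED gene, was the one that rose (0.68, SE 0.118, edgeR adjusted p 0.000206), from 1.96 to 3.13 CPM. DUSP9 fell most, from 18 to 21 counts in the MCF10A libraries to 0 to 2 in MCF10AT1, and was at 0 in MCF10Ca1a, at least 3.46-fold lower than in MCF10A against a floor of 3 counts per library. In MCF10Ca1a 6 were higher and 2 lower than in MCF10AT1 (median 0.54), and 4 were higher and 4 lower than in MCF10A (median 0.06), 80% called in each against 78.4% and 80.9% of all genes. DUSP8 rose from 0.272 CPM in MCF10AT1 to 1.40 CPM in MCF10Ca1a (log2 change 2.35, SE 0.221, adjusted p 2.52e-07), and ETV1, the third gene of the PEA3 group, fell from 19.7 CPM in MCF10A through 6.89 to 1.72 CPM (-2.00, SE 0.121, adjusted p 2.34e-09, for the last step).

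Of 18 genes of the RAS-ERK cascade itself, from adaptors to ERK, 5 were higher and 6 lower in MCF10AT1 than in MCF10A (median log2 change -0.05), so that 61.1% were called against 61.6% of all genes tested. Only 7 were called without the filter on low counts, and 7 with only the lines compared. On counts the scaffold gene KSR1 (1.27, SE 0.116, edgeR adjusted p 4.54e-07) and HRAS (1.25, SE 0.0524, adjusted p 1.65e-10) rose most, and their gap is within the SE of KSR1. The kinase gene ARAF fell most (-0.49, edgeR adjusted p 4.80e-06). In MCF10Ca1a 8 were higher and 6 lower than in MCF10AT1 (median 0.03), 77.8% called against 78.4% of all genes, led by the adaptor genes SHC1 (1.19, adjusted p 3.51e-10) and GAB1 (-1.58, adjusted p 7.91e-10). Against MCF10A 10 were higher and 7 lower (median 0.25), 94.4% called against 80.9% of all genes, with HRAS 3.55-fold higher (edgeR adjusted p 9.94e-13) and GAB1 3.02-fold lower (adjusted p 5.40e-10).

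Among 12 other inhibitors of RAS and ERK, 6 were higher and 3 lower in MCF10AT1 than in MCF10A (median log2 change 0.13), 6 higher and 5 lower in MCF10Ca1a than in MCF10AT1 (0.20), and 7 higher and 4 lower in MCF10Ca1a than in MCF10A (0.79). The shares called were 75%, 91.7% and 91.7%, against 61.6%, 78.4% and 80.9% of all genes tested. NF1, which encodes the neurofibromin that SPRED proteins recruit, had 75.4 ± 2.67 CPM (SD, n = 3) in MCF10A, 66.7 ± 6.21 in MCF10AT1 and 229 ± 6.24 in MCF10Ca1a. It was slightly lower in MCF10AT1 (log2 change -0.18, SE 0.0645, edgeR adjusted p 0.0284), although the libraries of MCF10A and MCF10AT1 overlapped. Like SPRED2, NF1 was higher in MCF10Ca1a, by 1.78 (SE 0.0658, edgeR adjusted p 1.51e-11) over MCF10AT1 and 1.60 (SE 0.0653, adjusted p 2.73e-11) over MCF10A. RASAL1, another RAS-inactivating gene, rose most, from 10 to 11 counts per MCF10A library to 573 to 649 in MCF10AT1 (log2 change 5.92, edgeR adjusted p 1.40e-13), and had 16.7 CPM in MCF10Ca1a (6.72 against MCF10A, adjusted p 1.11e-14). RASA3 had 18.3 CPM in both MCF10A and MCF10AT1 and 1.96 CPM in MCF10Ca1a, a fall of -3.22 against either (edgeR adjusted p 1.12e-11 against MCF10AT1 and 7.54e-12 against MCF10A).

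The 4 genes for repressors of ERK target genes, CIC, its partners ATXN1 and ATXN1L, and ERF, were all called in every comparison, 3 higher and 1 lower each time, where 61.6%, 78.4% and 80.9% of all genes tested were called. In MCF10AT1 against MCF10A only 2 were called with limma on log2(TPM + 1) without a filter. CIC had 59.0 ± 4.30, 72.2 ± 3.05 and 87.4 ± 2.66 CPM (SD, n = 3), with log2 changes of 0.29 (SE 0.0588, edgeR adjusted p 0.000680) and 0.27 (SE 0.0592, adjusted p 0.000741) at the 2 steps and 0.57 (SE 0.0595, adjusted p 7.44e-07) over both. ATXN1 rose from 12.4 through 15.7 to 45.7 CPM and was the largest rise in MCF10Ca1a (1.55 against MCF10AT1, edgeR adjusted p 9.95e-12, and 1.89 against MCF10A, adjusted p 1.14e-12). ERF had 50.0, 72.4 and 32.2 CPM, the same order of lines as SPRY2 and ETV4: it rose by 0.54 (edgeR adjusted p 6.26e-06) and then fell by 1.17 on the log2 scale (adjusted p 1.24e-09), to -0.63 against MCF10A (adjusted p 7.78e-07). ATXN1L was the gene that was lower in MCF10AT1 (-0.30, edgeR adjusted p 0.000269).

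Of 16 other ERK target genes, 14 were higher in MCF10AT1 than in MCF10A by edgeR's quasi-likelihood test and the other two had no call, and the median log2 change was 0.77 against 0.00 over all genes. Of all genes tested, 29.8% were higher in this comparison. EGR3, an immediate-early transcription factor, rose most, from 29 to 44 counts per library to 340 to 383 (3.42, SE 0.149, edgeR adjusted p 2.45e-10). At the second step 9 were higher and 6 lower (median 0.19), 93.8% called against 78.4% of all genes. EPHA2, a receptor gene, rose from 183 to 1380 CPM (2.92, SE 0.0888, edgeR adjusted p 2.42e-12), and AREG, which encodes the EGF receptor ligand amphiregulin, fell from 1899 to 361 CPM (-2.39, SE 0.0592, adjusted p 4.06e-13). Against MCF10A, 12 were higher and 3 lower in MCF10Ca1a (median 0.57), 93.8% called against 80.9% of all genes, with LIF, a secreted cytokine, 17.8-fold higher (edgeR adjusted p 3.34e-15) and AREG 2.53-fold lower (adjusted p 4.58e-11).

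**Figure D5:**
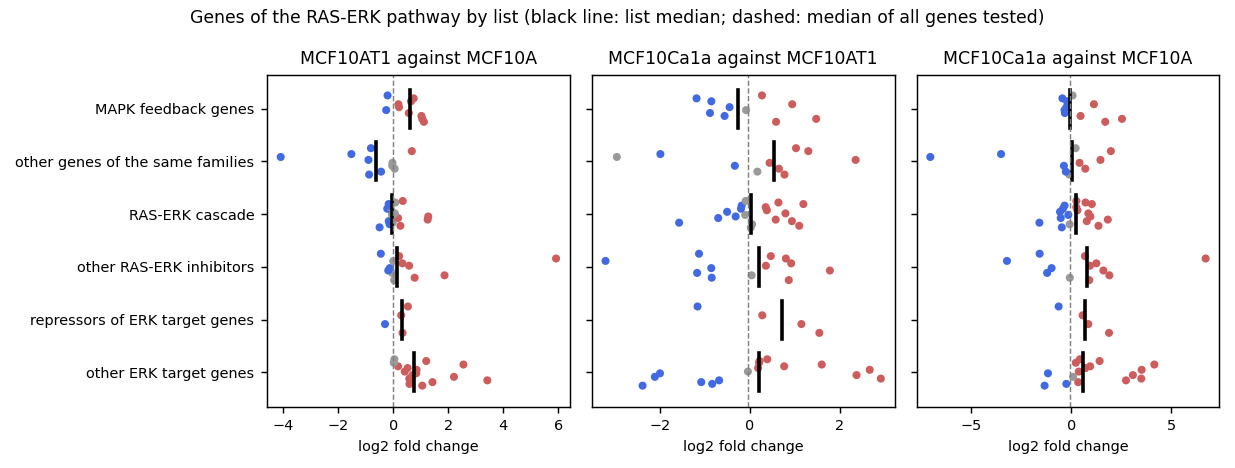
Fitted log2 fold change of every gene tested in the feedback list and 5 other lists of the pathway, in the 3 comparisons (horizontal axes of different range), red for higher, blue for lower and grey for no call, with the median of each list as a black line and that of all genes dashed. In MCF10AT1 against MCF10A the medians of the feedback genes (0.61) and of the other ERK target genes (0.77) lie to the right of the dashed line and that of the other family genes (-0.62) to its left.

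Genes with the most similar course over the 9 libraries were found for each of the 10 by the root mean square difference in centred log2 CPM, among genes with a mean of at least 100 counts. They are given as a description, over 9 libraries of 3 lines. The nearest were TMC7 (0.0612) and TRIB3 for DUSP4, PHLDA2 (0.0530) and MVD for DUSP5, and TMEM154 (0.0301) and HMGCS1 for DUSP6. For SPRY1 they were STARD10 and MRPS2, for SPRY2 PDE12 and IRX1, and for SPRY4 TMEM33 and SSH2. RPGRIP1L and UBAC1 were nearest to SPRED1, WSB2 and MBD5 to SPRED2, CSTF2 and PGRMC2 to ETV5. ETV4 was nearest to STK39 (0.0422) and CCND1 (0.0487), the cyclin D1 gene, which had 204, 307 and 172 CPM in the 3 lines. Within 0.1 lay 8 genes for DUSP5, 13 for DUSP4, 16 for DUSP6, 27 for SPRY2, 40 for ETV4, 50 for SPRY1, 160 for SPRED2, 310 for SPRED1, 410 for SPRY4 and 413 for ETV5. Among the 10 genes themselves, SPRY1 and ETV4 were the closest pair (0.0761), followed by SPRY2 and ETV4 (0.145).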

How the data were processed

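Polyadenylated RNA was sequenced from 3 libraries of each line with a stranded kit, per the labels' protocols. The submitters' processing notes name Salmon and the genome build hg38; the version, the annotation release and the strand setting are not given in the sources used here. The deposited estimated counts per gene, and those per transcript, are sums of reads assigned by probability and are not whole numbers. The deposited TPM values per gene and transcript, in the authors' files, are scaled to length and library total and were used as deposited. The deposited length-scaled and scaled estimated counts served as alternatives. No column of values lacked a library (0).

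Estimated counts were rounded, filtered by line (edgeR's filterByExpr, at least 10 counts and a total of at least 15; 17910 of 62666 genes kept) and tested in 1 fit of all 9 libraries with edgeR's quasi-likelihood test (edgeR 4.0.16, R 4.3.3, TMM, Benjamini-Hochberg, threshold 0.05). The standard error is the log2 change divided by the square root of F. Transcript shares were tested with limma 3.58.1 on log2 of transcript TPM over the rest of its gene, each plus 0.1, for genes of at least 1 TPM in every line and mean shares from 5% to 95%; Salmon's uncertainty in splitting reads over transcripts was not part of the test. Before use, these tests and the DESeq2 1.42.0 test were tested on simulated data. The libraries hold no molecular identifiers that the sources used here mention, so limits from counts cover counting error only. Positions come from GENCODE 29, sequences from RefSeq.

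The text names all 10 genes, of each other list the largest called rise and fall per comparison, HRAS, CIC and NF1, the 2 nearest genes in course, and each gene's main transcript or those with a changed share. One gene falling under it is not reported here. The 10 genes and the lists were chosen with earlier results of these data known. The 9 pairs of libraries within a line differed by 2.42 to 68.3 in chi-square per degree of freedom, so none was taken as a repeat deposit. Pairs within MCF10A lay at 10.7 to 68.3, within MCF10AT1 at 3.42 to 15.7 and within MCF10Ca1a at 2.42 to 4.14. The fit of all 9 libraries uses 1 estimate of the spread for the 3 lines. Alternatives were the size factors and Wald test of DESeq2, no filter, the scaled and the length-scaled counts, a replicate block, libraries thinned to equal depth, limma on TPM (log2 with 1 or 0.1 added, with a filter of 0.5 TPM or none), fits of 2 lines at a time, and leaving out single libraries.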

Additional observations from a re-analysis of the deposited data

How the results depend on the processing

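Of the 30 log2 changes (10 genes in 3 comparisons), 28 passed the threshold and 23 of these 30 gave the same result in all 20 alternatives. No called change reversed in any of them. SPRY4 in MCF10Ca1a against MCF10A and ETV5 in MCF10Ca1a against MCF10AT1, neither of them called, changed sign in some. In MCF10Ca1a against MCF10A the feedback genes called lower were 5, but 3 with limma on log2(TPM + 1), 3 with limma on log2(TPM + 0.1) and 2 on log2(TPM + 1) without a filter. SPRY4 passed the threshold there on log2(TPM + 1) alone (0.18, limma adjusted p 0.0479, 0.0479 to 0.933 over the alternatives). Genes called higher in MCF10AT1 against MCF10A numbered 5335, but 3219, 3231 and 3276 in those 3 analyses. In the same comparison the cascade list had 11 calls, but 7 without the filter on low counts and 7 with only the lines compared, and the 4 calls of the repressor list became 2 on log2(TPM + 1) without a filter. The cause of these changes was not tested. Without 1 library, the member transcripts with a changed share numbered 0 to 3 in MCF10AT1 against MCF10A, 3 to 5 in MCF10Ca1a against MCF10AT1 and 3 to 7 in MCF10Ca1a against MCF10A, and with share limits of 1% and 99% the first count was 0. Replicate numbers did not pair the libraries: the deviations of same-numbered libraries correlated at -0.136 to 0.160 over 9 pairs, 1 pair was above 0.1, and in 2 of the 9, both between MCF10AT1 and MCF10A, this was above the correlation of the MCF10AT1 library with the other MCF10A libraries. With the replicate number as a block, 10, 9 and 8 of the 10 feedback genes were called in the 3 comparisons, the lost call being SPRY1 in MCF10Ca1a against MCF10A (edgeR adjusted p 0.0506), and member transcripts with a changed share numbered 0, 3 and 5. Counts were low for SPRY1, with as few as 127 in an MCF10Ca1a library, and for the SPRED2 transcript ENST00000427238.1, with 33 or fewer in each library.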

Other observations

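Of 8 receptor tyrosine kinase genes that can feed the pathway, 3 were higher and 3 lower in MCF10AT1 than in MCF10A, 4 higher and 2 lower in MCF10Ca1a than in MCF10AT1, and 4 higher and 4 lower in MCF10Ca1a than in MCF10A (edgeR's quasi-likelihood test). The shares called were 75%, 75% and 100%, against 61.6%, 78.4% and 80.9% of all genes tested. FGFR3 had 495 to 538 counts in each MCF10A library and 0 or 1 in each library of both derived lines. FGFR4 rose from 1.56 CPM in MCF10A to 6.31 in MCF10AT1 and 9.46 in MCF10Ca1a (log2 change 2.02, edgeR adjusted p 7.17e-10, and 2.60, adjusted p 1.38e-11, both against MCF10A). FGFR1 fell from 7.78 CPM in MCF10AT1 to 0.552 in MCF10Ca1a (-3.81, SE 0.157, edgeR adjusted p 4.56e-11), where ERBB2 was 2.31-fold higher (log2 change 1.21, SE 0.0921, adjusted p 2.71e-08).

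Genes of the serum response factor, which also answers to serum and the cytoskeleton, were called in both directions: of 8, 2 were higher and 4 lower in MCF10AT1 than in MCF10A, 2 higher and 4 lower in MCF10Ca1a than in MCF10AT1, and 3 higher and 5 lower in MCF10Ca1a than in MCF10A. The shares called, 75%, 75% and 100%, stand against the same background. The contractile genes TAGLN, MYL9 and ACTG2 were lower in both derived lines than in MCF10A. ACTG2 lay near the floor, with 12 to 22 counts per MCF10A library and 0 to 2 in each library of the derived lines. TAGLN went from 87.6 CPM in MCF10A to 1.51 in MCF10AT1 and 1.79 in MCF10Ca1a (log2 change -5.85, SE 0.0701, edgeR adjusted p 1.45e-15, for the first step), and MYL9 from 968 to 1100 counts per library in MCF10A through 33 to 50 in MCF10AT1 to 0 or 1 in MCF10Ca1a. CCN2, which encodes a secreted matrix protein, had 24.8, 63.4 and 13.7 CPM, with its highest level in MCF10AT1 (1.36 over MCF10A, SE 0.0493, edgeR adjusted p 4.08e-11). VCL, the vinculin gene, had 211, 185 and 324 CPM (0.81, SE 0.0969, adjusted p 3.18e-06, for MCF10Ca1a against MCF10AT1). The serum share of the medium was lower in MCF10AT1, and its part in these values was not tested.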
